A study of Danio rerio with 9 samples.

Results

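The genes described here encode the transcription machinery of the zebrafish embryo: the subunits of RNA polymerases I, II and III, the general transcription factors, the Mediator and Integrator complexes and a few elongation factors. They were taken as all loci of the deposited gene tables with a symbol that begins with polr1 to polr3, med, taf, gtf2, gtf3, supt, ccnt, tbp or ints (followed by a number for med, taf, supt and ints), or that reads cdk7 or cdk9. Of 30702 loci, 124 met this rule, and 64 of them had a mean of at least 1 FPKM (fragments per kilobase of transcript, per 1000000 mapped fragments) over the 9 libraries and are called measured.

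The study compared embryos of different ploidy by sequencing RNA of whole zebrafish embryos taken 3 hours after fertilization. There were 3 tetraploid, 3 haploid and 3 diploid (control) libraries. In every group the mother was a TJH female and the father a Tu male, and haploid and tetraploid embryos were made by a published protocol that the labels cite. The sources used here give neither the number of embryos per library nor whether the libraries of a group came from separate clutches. The p-values therefore reflect the spread of these libraries alone, and that spread may be technical.

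Genes are read by different polymerases in all animal cells. RNA polymerase I makes the large ribosomal RNAs, RNA polymerase II makes messenger RNAs, and RNA polymerase III makes transfer RNAs and 5S ribosomal RNA. At a messenger RNA gene, TFIID and the other general factors place polymerase II at the start site, Mediator connects it to bound activators, and P-TEFb (the kinase Cdk9 with a cyclin T) releases it from its pause near the start. An early fish embryo divides without transcribing its genome and lives on RNA and protein laid down by the mother, so the messages for this machinery are mostly maternal when the embryo's own genome is switched on.

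The maternal marker genes that were measured were high, and the few late tissue markers that could be read were near 0. Of 9 maternal markers, 5 were measured, and their summed level was 1678 to 1895 scaled FPKM in tetraploid libraries, 1581 to 1691 in haploid libraries and 1526 to 1665 in diploid libraries. Of 10 late tissue marker loci, 3 lay in the first numbering run (explained below). These summed to 0 in tetraploid libraries, to at most 0.741 in haploid libraries and to at most 1.22 in diploid libraries. The maternal markers ccna1, dazl and zar1 and the zygotic genes vox, vent, krt4 and tbx16 lay in the second run and were not measured. The 4 measured of 8 first zygotic genes (klf17, mxtx2, irx7 and aplnrb) summed to 16.1 to 32 in tetraploid libraries, 1.17 to 40.3 in haploid libraries and 15.5 to 119.8 in diploid libraries. Libraries of a group thus differed widely in the onset genes, and the part of this in the results below was not tested. Tetraploid replicate 3 stood apart: the median absolute deviation of all 5881 loci tested from their median over libraries was 0.390 log2 units there, against 0.0964 to 0.200 in the other 8 libraries. Over the 64 measured members the same figure was 0.278 in that library and 0.0809 to 0.217 in the others. Mitochondrial loci took 14.7% of the summed FPKM in tetraploid replicate 3 and 18.2% to 26.8% in the others. In bulk RNA, fewer cells of a type and less RNA per cell cannot be told apart.

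Levels below are scaled FPKM: the deposited values divided by a factor per library (0.801 for tetraploid replicate 3 and 1.0 to 1.06 for the others). Depth was not stated. If the bounds deposited with each FPKM are read as 2 standard deviations of counting error, a measured member rested on a median of 312 to 674 fragments per library, which covers counting error only.

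The 60 members that were not measured cannot be called silent. In the order of locus numbers in the deposited tables, positions run along each chromosome, drop back once and run along it again, and nearly all loci of the second numbering run are at or near 0 (0 to 0.977% of them per chromosome reached a mean of 1 FPKM, against 12.4% to 49.0% of the first run on the 25 chromosomes). Of the 124 members, 59 lie in the second run, and 57 of these were not measured. Among them are genes that every cell uses: polr2b and polr2c, which encode core subunits of RNA polymerase II, tbp, which encodes the TATA-binding protein, and gtf2b, taf1 and cdk7. The cyclin gene ccnt2a and the Mediator kinase module genes med13a and med13b are there too. No member locus carried the symbol ints11, so that gene was not analysed here. The 2 measured members of the second run, med27 and supt3h, were low, with mean FPKM of 1.44 and 1.12. Members of the first run that missed the limit were med30 (0.807), gtf2ird1 (0.420) and polr3glb (0.302). The members of either run just above the limit were supt3h (1.12) and polr3g (1.26). In the authors' deposited table of values pooled per ploidy, and in its second version, 58 of the 60 were below 1 FPKM as well.

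The measured machinery was well represented in the RNA of these embryos. Because FPKM are per length, levels are set side by side between genes here, but only roughly. Overlap with another locus (16 of the 64 measured members) and reads shared between near copies may shift a level, which was not tested. The median over the 64 members was 21.5 scaled FPKM, against 11.9 over all 5881 loci tested, and 50 of the 64 lay above the latter. Of the members, 7 had a mean level of at least 100, 45 of 10 to 100, and 12 below 10. The spread over the 9 libraries was modest, with a median coefficient of variation of 19.3%, against 23% for all loci tested. The members were also the set with the higher levels, and loci of matched level were not compared.

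**Figure D1:**
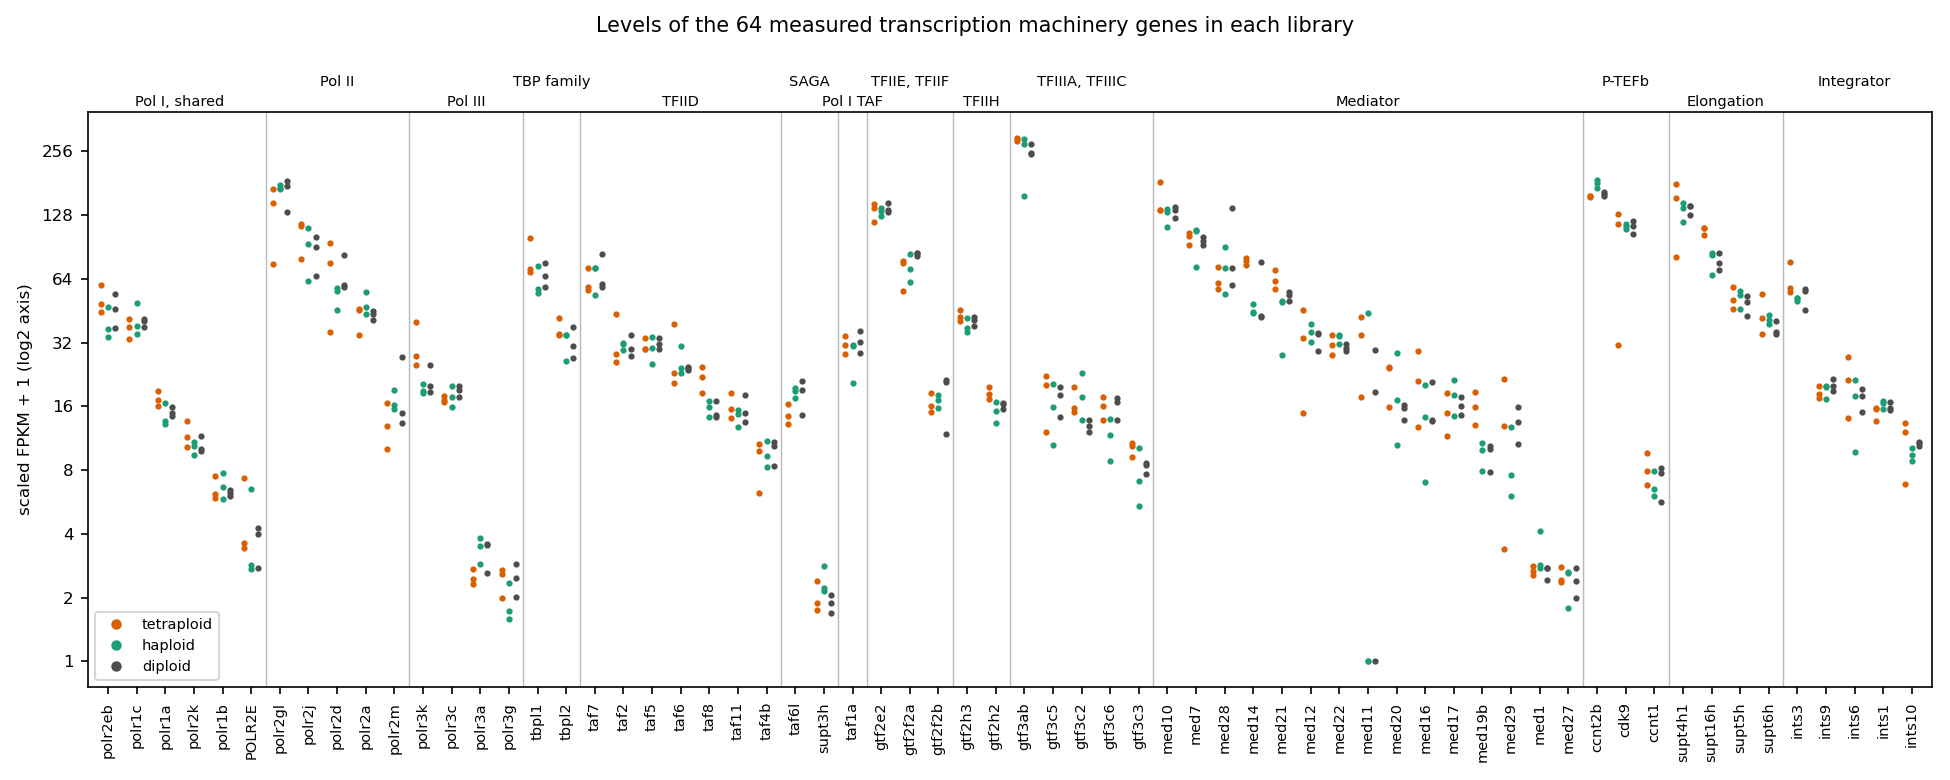
Level of each measured member in each of the 9 libraries, as scaled FPKM + 1 on a log2 axis; points are libraries, colours are ploidies, and genes are grouped by role and ordered by mean level within it. The members run from supt3h at a mean of 1.09 to gtf3ab at 263.9, and 3 libraries of med11 are listed at 0.

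The largest subunit of polymerase II, polr2a (chromosome 12 from 22438847 to 22452078 of GRCz10, as all positions below), had 44.6, 44.9 and 33.7 scaled FPKM in tetraploid libraries, 46, 54.6 and 42.9 in haploid libraries and 42.8, 44 and 39.7 in diploid libraries. The groups overlapped. The largest subunits of the other polymerases were lower: polr1a averaged 14.7 over the 9 libraries and polr3a 2.05. Within each library polr2a was 1.89 to 4.45 times polr1a. polr1b, the second-largest subunit of polymerase I, averaged 5.51, and polr1c, a subunit shared by polymerases I and III, 38.5.

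Small polymerase II subunits lay above the largest one. polr2gl, related to the stalk subunit Rpb7, averaged 155, and its partner in the stalk, polr2d, 61.9. polr2j, the Rpb11 subunit, averaged 91.5. Lower were polr2m, whose product can hold polymerase II inactive, at 15.2, and polr2k, a small subunit shared by all 3 polymerases, at 9.83. The shared subunit Rpb5 has a locus labelled polr2eb at 44.5 and another labelled POLR2E (1 of many) at 3.16, and reads of near-identical copies may have been split between them. For polymerase III, polr3k (its cleavage and termination subunit) averaged 22.8, polr3c 17 and polr3g, the form of a subunit found in mammalian stem cells and embryos, 1.25.

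Among promoter factors, the highest message was that of gtf3ab, a gene for TFIIIA, which starts 5S ribosomal RNA genes and in Xenopus oocytes also stores 5S RNA. It lies on chromosome 24 from 21495460 to 21497684. It had 293, 285 and 296 scaled FPKM in tetraploid libraries, 278, 293 and 157 in haploid libraries and 249.6, 276 and 248 in diploid libraries, and 98.1% of all loci tested were lower on average. Haploid replicate 3 stood below the other 8 libraries, and on scaled values, though not as deposited, every tetraploid library was above every diploid one. The TFIIIC genes, whose product binds inside transfer RNA genes, were far lower, with gtf3c5 at 16, gtf3c2 at 14.9, gtf3c6 at 13.4 and gtf3c3, whose locus also carries fastkd2, at 7.65.

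Both relatives of the TATA-binding protein were measured. tbpl1, needed for transcription in early zebrafish and Xenopus embryos, ranged over 53.7 to 99.3 scaled FPKM. tbpl2, which takes the place of TBP in mouse oocytes, ranged over 25.1 to 41. In each library tbpl1 was 1.55 to 2.94 times tbpl2. Of the TFIID subunits, taf7 was highest at 64.4 and taf4b, the germ cell form of TAF4 in mice, lowest at 8.43. taf2 averaged 30.4, taf5 29.9, taf6 25, taf8 16.5 and taf11 14.3. The polymerase I promoter factor taf1a averaged 29.4. Of SAGA, a coactivator that shares subunits with TFIID, taf6l averaged 16.2 and supt3h 1.09.

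TFIIE and TFIIF escort polymerase II to the promoter. gtf2e2, the TFIIE beta subunit, ranged over 117 to 146 scaled FPKM in the 9 libraries. The TFIIF small subunit has a gene pair, of which gtf2f2a was 3.13 to 7.76 times gtf2f2b in each library. TFIIH opens the DNA at the start site, and of its core genes gtf2h3 averaged 39.6 and gtf2h2 15.6.

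Mediator messages spread over a wide range. The middle module genes med10 and med7 were highest, at 136 and 96.7, and med21, the partner of Med7 in that module, averaged 52. med14, the backbone that joins the modules, averaged 58. Of the head module, med22 averaged 30.7, med20 17.5, med11 20.1 and med17 15.3. med16 of the tail averaged 15.9, med12 of the kinase module 32.4, and med1, the subunit that nuclear receptors contact, 1.85. The others were med28 at 74.3, med19b at 10.6, med29 at 10.6 and med27 at 1.42.

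P-TEFb and the elongation factors were abundant. ccnt2b, a cyclin T2 gene on chromosome 22 from 12132766 to 12147026, averaged 165, within a narrow range of 156 to 187 in the 9 libraries. Its kinase partner cdk9 averaged 105, and the other measured cyclin T gene, ccnt1, 6.38, so that ccnt2b was 18.2 to 37.3 times ccnt1 in each library. The DSIF subunit genes supt4h1 and supt5h, which hold polymerase II in its pause and travel with it afterwards, averaged 136 and 49.8. supt16h, the large subunit of the histone chaperone FACT, averaged 86.9, and supt6h, a histone chaperone that binds elongating polymerase II, 39.6. Integrator processes the ends of small nuclear RNAs and terminates paused transcripts. Its measured genes were ints3 at 54.9, ints9 at 18.2, ints6 at 17.2, ints1 at 14.7 and ints10 at 9.30.

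Tests between ploidies were made with limma on log2(scaled FPKM + 1) over all 5881 loci, with 9 libraries in 1 fit, Benjamini-Hochberg adjustment at 0.05 and two-sided p-values. Differences on this scale understate those of low genes. Haploid and tetraploid embryos share the diploid controls, and each pair of comparisons shares 1 group.

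In haploid against diploid embryos most measured members lay close together. By limma 0 of the 64 measured members passed (background 0% of the loci tested), and 1 had an unadjusted p under 0.05, against 1.38% of the loci tested. Because the fit is joint, the spread among tetraploid libraries enters this test too. Without tetraploid replicate 3, an unadjusted limma p under 0.05 was found for 199 of 5929 loci, where it was 81 of 5881 with it. Of the 64 members 2 were then at that level and 0 passed. The median log2 difference over the members was -0.038, against -0.0053 over all loci tested, and 25 of 64 (39.1%) were positive, against 48.9%. Groups did not overlap in 4 members that were higher in haploids (6.25%, background 4.66%) and 3 that were lower (4.69%, background 3.93%). With FPKM as deposited these counts were 2 (background 3.42%) and 4 (background 4.73%). Of the members, 62 lay within 0.5 log2 units of no difference, which is 96.9%, against 94.9% of all loci tested.

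The cyclin gene ccnt2b had 170.2, 187 and 180.0 scaled FPKM in haploid libraries and 157, 161 and 164 in diploid libraries. Every haploid value was above every diploid one, by a mean log2 difference of 0.15 ± 0.10 (SE, limma adjusted p = 0.9996). Differences of the same sign without overlap were found in med22 (0.15), med1 (0.27) and supt3h (0.35), and of the opposite sign in med21 (-0.37), polr2d (-0.33) and ints10 (-0.17). As deposited, the groups of med22 and med1 overlapped. All had a limma adjusted p of 0.9996. Haploid replicate 2 weighed on some of these: without it the log2 difference was 0.090 for med1, -0.085 for med21 and 0.23 for supt3h. For polr2d it was -0.17 without diploid replicate 2. With the bounds read as above, supt3h rested on only 1.499 to 12.74 fragments per library. Its locus lies in the second numbering run and overlaps runx2a, so its difference is given with no reading.

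polr2a averaged 47.8 ± 6.05 scaled FPKM in haploids and 42.2 ± 2.19 in diploids (SD, n = 3 each). cdk9 averaged 112 ± 2.63 in haploids and 112 ± 8.04 in diploids, a log2 difference of 0.012 ± 0.44 (SE). This SE comes from the joint fit, so it includes the spread of the tetraploid libraries, where cdk9 was at 30.1 in replicate 3. The member with the smallest unadjusted p was gtf3c6, singled out after its values were seen, with 10.8, 7.79 and 12.9 in haploid libraries and 12.8, 16.4 and 15.8 in diploid libraries. On scaled values its groups overlapped, and its limma adjusted p was 0.9996. As deposited they did not, with a highest haploid value of 13.31 FPKM and a lowest diploid value of 13.54 FPKM.

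By role, 4 of 5 TFIIIA and TFIIIC genes were negative in haploids (median -0.17), as were 4 of 5 Integrator genes (median -0.086), all 3 genes of TFIIE and TFIIF (median -0.060) and 9 of 15 Mediator genes (median -0.030). Positive were 3 of 4 elongation factor genes (median 0.059) and 3 of 5 polymerase II genes (median 0.032).

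**Figure D2:**
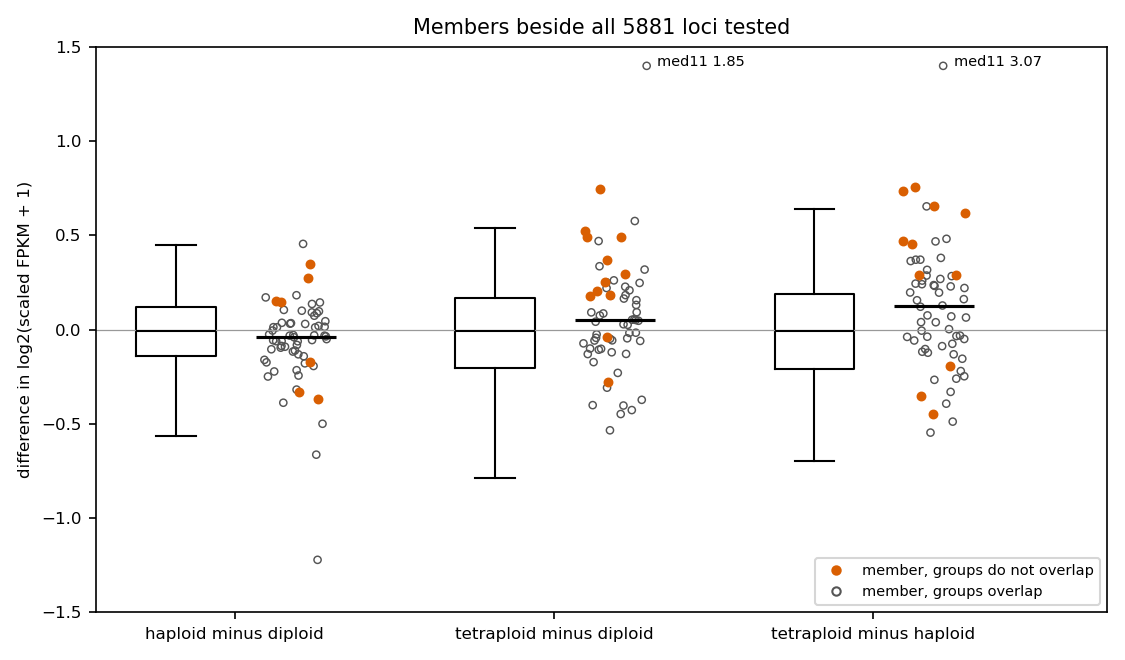
Differences in log2(scaled FPKM + 1) in the 3 comparisons. Boxes show the quartiles of all 5881 loci tested with whiskers around the central 95%, points are the 64 members, filled where the 2 groups do not overlap, short bars are the members' medians (-0.038, 0.052 and 0.13), and med11 is drawn at the upper edge with its value written beside it.

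In tetraploid against diploid embryos a few members, among them supt16h, med19b, polr3k and taf8, had their highest scaled values in tetraploids without passing the test. By limma 0 of 64 passed, where 1 of 5881 loci did (background 0.017%), and 5 members had an unadjusted p under 0.05 (7.81%, background 4.9%), all of them higher in tetraploids. With FPKM as deposited 2 members were at that level (257 of all 5881 loci), each higher in tetraploids. The groups did not overlap in 10 members that were higher in tetraploids (15.6%, background 5.48%) and in 2 that were lower (3.12%, background 6.02%). The median log2 difference over the members was 0.052, against -0.0046 over all loci, with 37 of 64 positive (57.8%, background 49.4%). With FPKM as deposited, where the median of all loci was itself shifted to -0.11, the members' median was -0.060 with 28 of 64 positive (1967 of all 5881 loci), and the groups did not overlap in 2 members higher (background 2.99%) and 3 lower (background 8.43%). Without tetraploid replicate 3 these counts were 15 higher (background 11.2%) and 3 lower (background 12.1%), with only 2 libraries left on the tetraploid side.

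supt16h, on chromosome 7 from 1415255 to 1483171, had 109.9, 110.2 and 102 scaled FPKM in tetraploid libraries, 82.1, 66 and 84.2 in haploid libraries and 75, 84.2 and 69.2 in diploid libraries. On scaled values every tetraploid library was above all 6 others. As deposited, tetraploid replicate 3 was at 81.5 FPKM, below haploid replicates 1 and 3 and diploid replicate 2 (85.2, 87.1 and 86.7), so the separation rested on the scaling of that library. The log2 difference from diploids was 0.49 ± 0.14 (SE, 1.41-fold, limma adjusted p = 0.833). In the authors' deposited table the pooled values of supt16h were 254 FPKM for tetraploids, 182 FPKM for haploids and 174 FPKM for diploids. These pooled values, and those of other genes below, are on a higher scale than the library values. They are pooled per ploidy, so they are not separate observations.

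med19b, a Mediator subunit gene on chromosome 1 from 43881065 to 43890186, had 14.9, 17.8 and 12.1 in tetraploid libraries, 9.00, 9.76 and 6.88 in haploid libraries and 9.42, 6.86 and 9.06 in diploid libraries. The 3 tetraploid libraries were the 3 highest on scaled values. As deposited, tetraploid replicate 3 was at 9.70 FPKM, below haploid replicate 2 (9.85) and diploid replicate 1 (9.95). The log2 difference from diploids was 0.75 ± 0.21 (SE, 1.68-fold, limma adjusted p = 0.833). Its pooled values in the authors' deposited table were 35.8 FPKM for tetraploids, 20.5 FPKM for haploids and 19.8 FPKM for diploids. The near copy med19a was not measured.

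polr3k, on chromosome 3 from 48427751 to 48431813, had 24.2, 26.8 and 38.8 in tetraploid libraries, 19.4, 17.9 and 17.5 in haploid libraries and 17.8, 23.9 and 19 in diploid libraries, with the tetraploids on top on scaled values and as deposited. Its log2 difference from diploids was 0.52 ± 0.20 (SE, limma adjusted p = 0.833), and 0.33 without tetraploid replicate 3. The other polymerase III genes had log2 differences of -0.37 (polr3a), -0.13 (polr3c) and -0.016 (polr3g), none of them positive.

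taf8, a histone-fold subunit of TFIID whose locus on chromosome 23 from 32465880 to 32495372 also carries BX957355.1, had 17.4, 23.4 and 21 in tetraploid libraries, 13.3, 14.8 and 15.9 in haploid libraries and 16, 13.6 and 13.3 in diploid libraries. On scaled values the tetraploids were above all others, by 0.49 ± 0.16 log2 units over diploids (SE, limma adjusted p = 0.833). As deposited, tetraploid replicate 3 was at 16.8 FPKM, below diploid replicate 1 at 16.9. The rest of TFIID lay between -0.17 (taf4b) and 0.13 (taf6).

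The further members without overlap were gtf3c2 (0.37), polr1a (0.20), gtf3c3 (0.30), med21 (0.25), gtf2h2 (0.19) and gtf3ab (0.18), all higher in tetraploids on scaled values. As deposited, the groups of gtf3c2 alone among these 6 did not overlap. Lower, on both scales, were gtf2f2a (-0.28) and ccnt2b (-0.039). The gtf2f2a difference was -0.13 without tetraploid replicate 3. That of ccnt2b was the smallest of all, with 156, 157 and 156 in tetraploid libraries against 157, 161 and 164 in diploid libraries. Limma adjusted p-values of these members were 0.833 to 0.941.

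**Figure D3:**
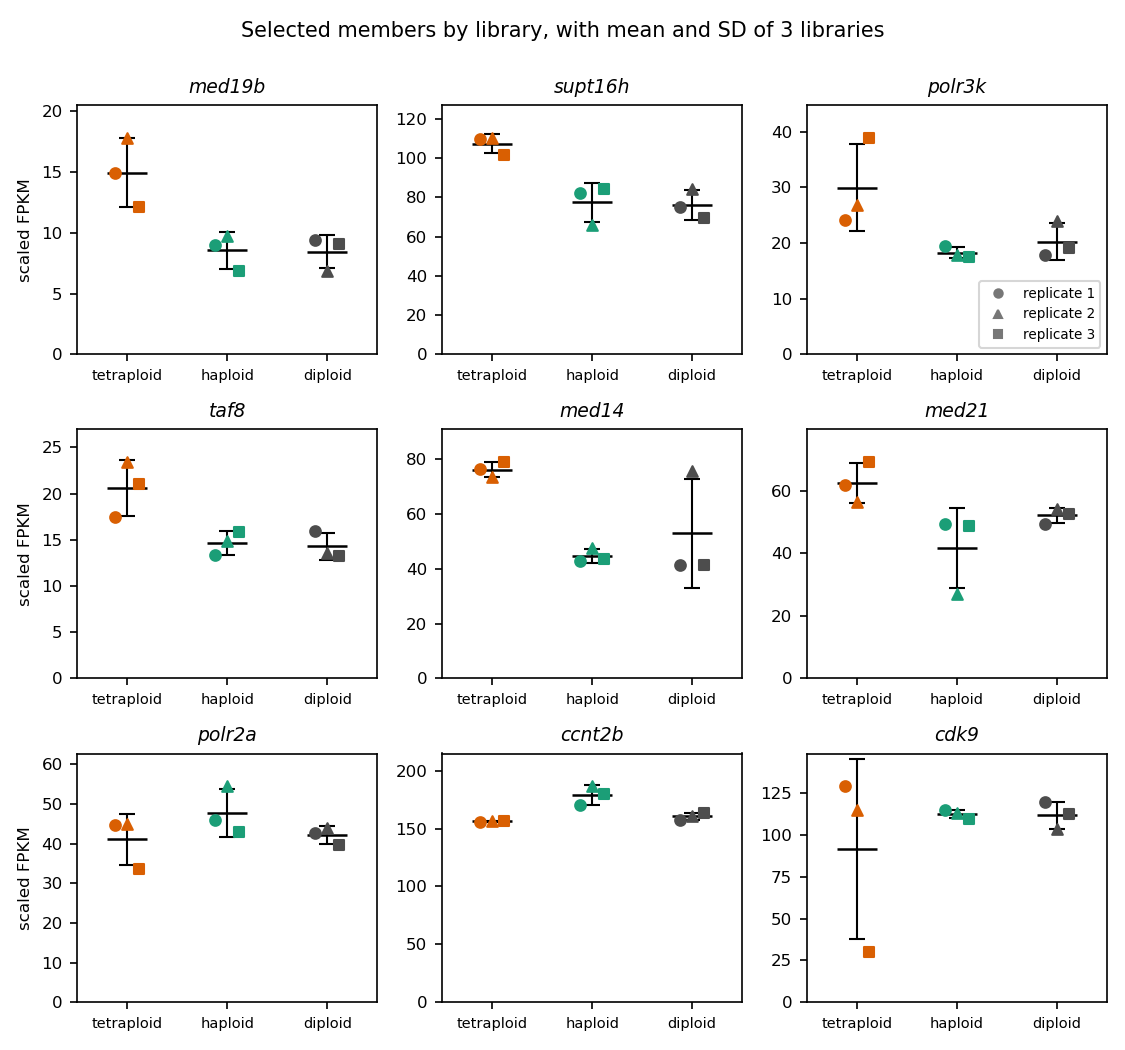
Scaled FPKM of 9 members in each library, with the mean and SD of the 3 libraries of each ploidy; marker shapes are replicate numbers and every axis starts at 0. On this scale tetraploid libraries lie above the 6 others in med19b, supt16h, polr3k, taf8 and med21, but as deposited only in polr3k, since tetraploid replicate 3 was divided by 0.801. The kinase gene cdk9 is at 30.1 in tetraploid replicate 3 and at 103 or more elsewhere.

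polr2a averaged 41.1 ± 6.39 in tetraploids and 42.2 ± 2.19 in diploids, a log2 difference of -0.048 ± 0.15 (SE). By role, 11 of 15 Mediator genes were positive in tetraploids (median 0.092), as were 4 of 5 TFIIIA and TFIIIC genes (median 0.18), 5 of 6 genes of polymerase I and shared subunits (median 0.16), 3 of 4 elongation factor genes (median 0.15) and both TBP relatives (median 0.24). Negative were 4 of 5 polymerase II genes (median -0.059), 3 of 4 polymerase III genes (median -0.072) and all 3 genes of TFIIE and TFIIF (median -0.072). Without tetraploid replicate 3, polr2a was at 0.086, polr2d at 0.35 and gtf2e2 at 0.027, so these genes turned positive. Then polr2j stayed positive at 0.17, while polr2gl (-0.040), polr2m (-0.27), gtf2f2a (-0.13) and gtf2f2b (-0.16) stayed negative. With FPKM as deposited the medians of these role groups kept their sign. They were 0.020 for Mediator, 0.049 for TFIIIA and TFIIIC and 0.025 for elongation factors. The median of all loci was -0.11 on that scale, so the negative groups were unlikely to change sign. Positive as deposited were 8 of 15 Mediator genes, 3 of 5 TFIIIA and TFIIIC genes and 2 of 4 elongation factor genes. Of polymerase I and shared subunits 4 of 6 were positive. The median of the 7 TFIID genes was -0.072 as deposited and 0.051 when scaled.

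In tetraploid against haploid embryos, the ends of the ploidy series, 0 of 64 members passed by limma (1 of 5881 loci, background 0.017%). Of the members, 7 had an unadjusted p under 0.05 (10.9%, background 7.72%), all higher in tetraploids. With FPKM as deposited 6 members were at that level (394 of all 5881 loci), of which only 4 were higher in tetraploids. The groups did not overlap in 8 members higher in tetraploids (12.5%, background 7.23%) and 3 lower (4.69%, background 6.53%). The median log2 difference was 0.13, against -0.006 over all loci, with 39 of 64 positive (60.9%, background 49.1%). With FPKM as deposited the median was 0.051 with 33 of 64 positive, where that of all loci was -0.092, and the groups did not overlap in 7 members higher (background 4.51%) and 4 lower (background 8.6%). On scaled values the median was 0.061 without haploid replicate 1, 0.062 without haploid replicate 3 and 0.075 without tetraploid replicate 2. Without tetraploid replicate 3, 18 members were higher without overlap (background 13.9%) and 6 lower (background 13.8%).

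med14, on chromosome 9 from 34588624 to 34614872, had 76.4, 73.4 and 79 scaled FPKM in tetraploid libraries, 43, 47.8 and 43.6 in haploid libraries and 41.5, 75.9 and 41.5 in diploid libraries. The values lay at 2 levels, with the tetraploids and diploid replicate 2 at 73.4 to 79 and the other 5 libraries at 41.5 to 47.8. The log2 difference of tetraploids from haploids was 0.76 ± 0.22 (SE, 1.69-fold, limma adjusted p = 0.551). From diploids the log2 difference was 0.58 ± 0.22 (SE, adjusted p = 0.833, limma), where the groups overlapped. In the authors' deposited table the groups of med14 were closer. The pooled values were 223 FPKM for tetraploids, 188 FPKM for haploids and 172 FPKM for diploids. Haploids were thus above diploids there, where the library means were 44.8 scaled FPKM in haploids and 53.0 in diploids. The library differences of med14 are therefore given with no reading.

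The log2 differences from haploids were 0.74 ± 0.21 for med19b, 0.65 ± 0.20 for polr3k, 0.47 ± 0.14 for supt16h and 0.46 ± 0.16 for taf8 (SE, limma adjusted p = 0.551 for the first 3 and 0.564 for taf8). The tetraploid values are those given above, so these are not separate observations. As deposited, tetraploids stayed above haploids without overlap in polr3k, taf8, med14 and med21, but not in med19b and supt16h. med21 had 61.7, 56.4 and 69.2 in tetraploid libraries and 49.2, 26.9 and 48.8 in haploid libraries, a log2 difference of 0.62 ± 0.22 (SE, limma adjusted p = 0.564) that was 0.34 without haploid replicate 2. Lower in tetraploids without overlap were polr3a (-0.45), taf6l (-0.35) and ccnt2b (-0.19), with limma adjusted p-values of 0.651 to 0.682. For ccnt2b the haploid libraries held 170.2, 187 and 180.0, the highest 3 of the 9.

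tbpl1 averaged 79.1 ± 17.5 in tetraploids, 60.9 ± 10.3 in haploids and 65.8 ± 9.03 in diploids, and tbpl2 36.3 ± 4.07, 30.9 ± 5.04 and 31 ± 5.53 in the same order (SD, n = 3 each). supt5h averaged 50.9 ± 6.37 in tetraploids, 51 ± 5.36 in haploids and 47.6 ± 5.22 in diploids, and supt6h 42.6 ± 9.62, 40.1 ± 1.89 and 36.2 ± 2.77. In these genes the groups overlapped in every comparison.

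**Figure D4:**
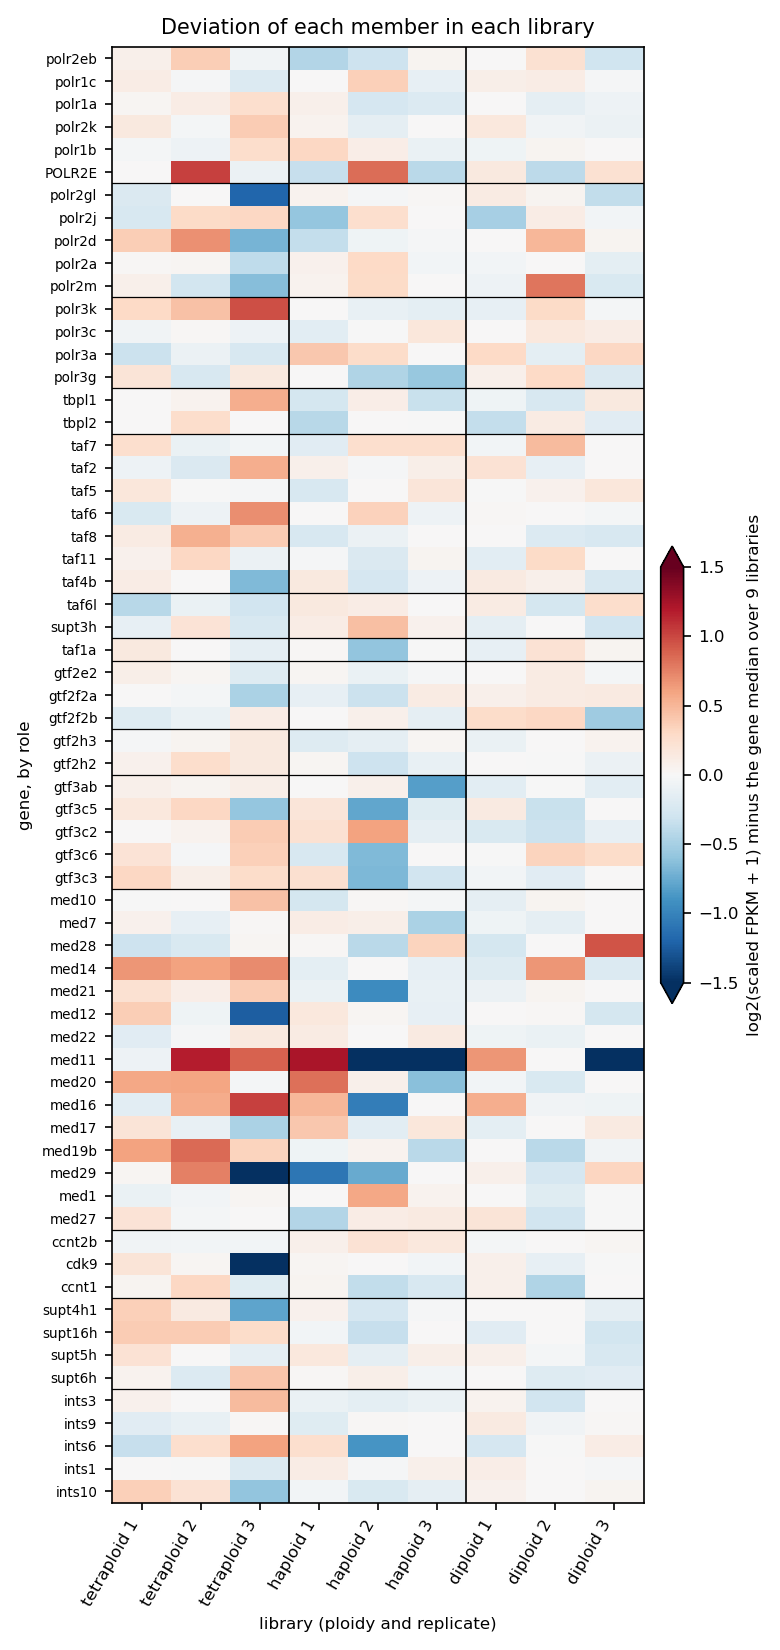
Deviation of each member from its median over the 9 libraries, in log2 units of scaled FPKM + 1, with genes grouped by role in rows and libraries in columns; colours saturate at 1.5 in either direction. Strong colours gather in tetraploid replicate 3 and haploid replicate 2, and in med11, which is listed at 0 in haploid replicates 2 and 3 and diploid replicate 3.

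Much of the spread within tetraploids lay in replicate 3. That library held the lowest of the 9 values in 15 of 64 members (23.4%, against 29.2% of all loci tested) and the highest in 18 (28.1%, against 29.0%). Members more than 1 log2 unit below the mean of the other 8 libraries numbered 4 (6.25%, against 9.37% of all loci tested), and 1 was that far above (1.56%, against 2.84%).

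The clearest case was cdk9, on chromosome 21 from 6031472 to 6045060, with 129, 115 and 30.1 scaled FPKM in tetraploid libraries, 115, 113 and 109.6 in haploid libraries and 119, 103 and 112 in diploid libraries. Tetraploid replicate 3 was 3.81-fold below the mean of the others, which lay within 103 to 129. Its cyclin partner ccnt2b was at 156.3 in the same library, so the ratio of cdk9 to ccnt2b was 0.192 there and 0.603 to 0.829 in the other 8. With all libraries the log2 difference of cdk9 from diploids was -0.53 ± 0.44 (SE), and without this one it was 0.13 ± 0.098 (limma adjusted p = 0.968). In the authors' deposited table the pooled values of cdk9 were 215 FPKM for tetraploids, 269 FPKM for haploids and 260.4 FPKM for diploids. On chromosome 21, the 207 loci tested had a median deviation of -0.23 log2 units in this library, the lowest of the nuclear chromosomes. The other measured members of this chromosome went in opposite directions there, with gtf3c5 at -0.51 and supt6h at 0.48 log2 units from the mean of the other 8 libraries. The members named below as low in this library lay on chromosomes with other medians. The median was 0.11 on chromosome 14 (med12 and polr2gl), 0.15 on chromosome 15 (med29) and 0.065 on chromosome 5 (supt4h1). On chromosome 2 (polr2d) it was -0.10. Whether the chromosome had a part in the low cdk9 value was not tested.

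The stalk genes of polymerase II were both low in that library, at 35.1 for polr2d, against 44.4 to 93.1 elsewhere, and at 74.1 for polr2gl, against 131.6 to 184.7. med12 was at 13.9 (28.2 to 44.4 elsewhere), med29 at 2.39 (5.01 to 20.5 elsewhere) and supt4h1 at 80.6 (117.6 to 179.3 elsewhere), so the ratio of supt4h1 to supt5h was 1.78, against 2.6 to 3.11 in the others. Without this library the log2 difference of supt4h1 was 0.29 ± 0.12 from diploids (SE, limma adjusted p = 0.967) and 0.32 ± 0.12 from haploids (SE, limma adjusted p = 0.456). For polr2d it was then 0.68 ± 0.19 from haploids (SE, limma adjusted p = 0.393). High in tetraploid replicate 3 were med16 at 28.1 (5.99 to 20.1 elsewhere), polr3k at 38.8 (17.5 to 26.8 elsewhere) and tbpl1 at 99.3 (53.7 to 75.4 elsewhere). These members of tetraploid replicate 3, and the lone values given next, were singled out after they were seen.

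**Figure D5:**
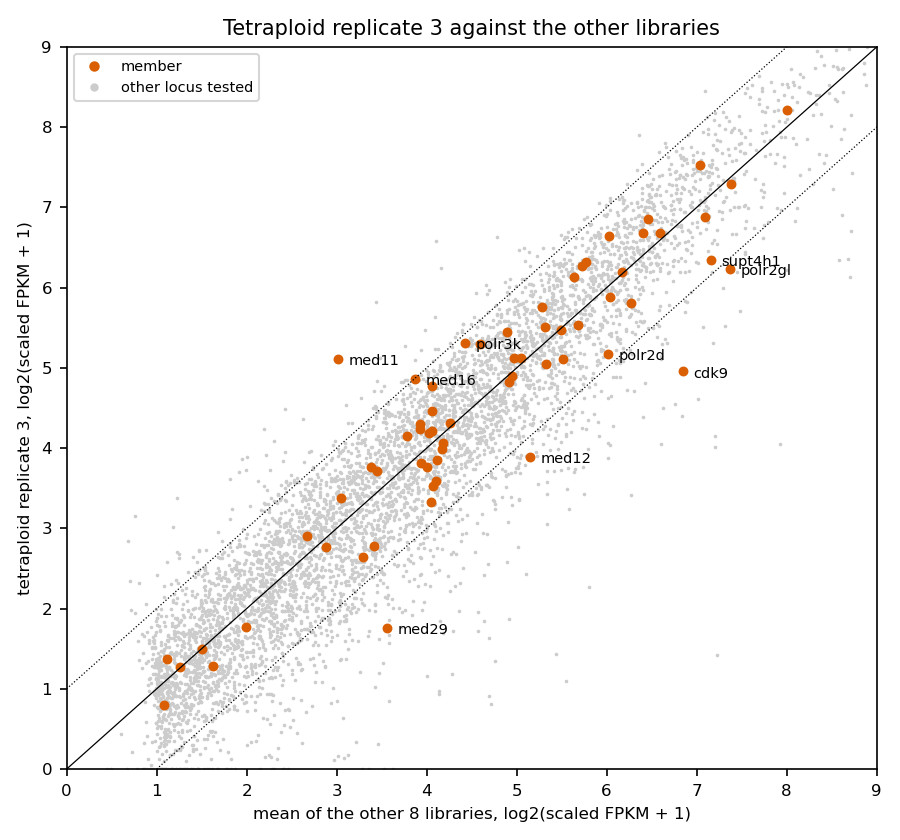
Level in tetraploid replicate 3 against the mean of the other 8 libraries, both as log2(scaled FPKM + 1) and shown up to 9, for the members and for the other loci tested. The solid line marks equal levels and the dotted lines a difference of 1 log2 unit, and cdk9, med29, med12 and polr2gl lie below the lower one.

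Outside tetraploid replicate 3, a few members had lone values in other libraries. med28 was at 137.2 in diploid replicate 3, against 53.1 to 89.4 in the other libraries. polr2m was at 26.3 in diploid replicate 2, against 9.03 to 18.1 elsewhere. med11 had 16.8, 41.3 and 33.6 in tetraploid libraries, 42.9, 0 and 0 in haploid libraries and 28.7, 17.8 and 0 in diploid libraries. No failed status was listed for med11, though a listed 0 can still be a poor estimate. In the authors' deposited table its pooled values were 73.3 FPKM for tetraploids, 55.6 FPKM for haploids and 46.5 FPKM for diploids. Haploids were thus above diploids there, where the library values gave a log2 difference of -1.22. The log2 difference of 3.07 between tetraploids and haploids for med11 is therefore given with no reading.

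The rest of the transcription apparatus was described with 5 lists of 140 symbols in all: partners of TFIIH and other cyclin-dependent kinases, pausing and elongation factors, capping and 3-prime end factors, polymerase I and III factors, and bromodomain readers with coactivators. Of these, 127 symbols were found and 47 loci were measured. By limma 0 of 47 passed in any comparison. Tetraploids against diploids gave 30 of 47 positive (63.8%, background 49.4%, median 0.059) and 3 with an unadjusted p under 0.05 (6.38%, background 4.9%). In tetraploids against haploids 29 of 47 were positive (61.7%, background 49.1%, median 0.066) and 6 had an unadjusted p under 0.05 (12.8%, background 7.72%). With FPKM as deposited both medians were negative, at -0.055 against diploids and -0.030 against haploids. The medians of all loci were lower on that scale, at -0.11 and -0.092. Haploids against diploids gave 23 of 47 positive (48.9%, as over all loci, median -0.00064) and 0 at that level (background 1.38%). Pausing and elongation factors had 9 of 11 members positive in tetraploids against diploids (median 0.17, and 0.056 as deposited). Against haploids 9 of 11 were positive too (median 0.13, and 0.025 as deposited). Against diploids, 0 of these 11 had an unadjusted limma p under 0.05 or groups without overlap. The other lists varied, in the same order of comparisons. Polymerase I and III factors had 1 of 5 positive in each (medians -0.038 and -0.045). Bromodomain readers with coactivators had 9 of 15 and 7 of 15 (medians 0.0032 and -0.048). Capping and 3-prime end factors had 8 of 12 and 9 of 12, and TFIIH and kinase partners 3 of 4 in each. Both pre-mRNA 3-prime end factors with an unadjusted p under 0.05, pcf11 (termination) and fip1l1b (polyadenylation), had log2 differences from diploids of 0.54 ± 0.23 and 0.40 ± 0.16, and from haploids of 0.61 ± 0.23 and 0.63 ± 0.16 (SE, limma adjusted p = 0.551 to 0.833). Tetraploid replicate 3 was the highest library of both. It held 16.7 for pcf11 (10.2 and 10.5 in the other tetraploids) and 49.9 for fip1l1b (40.8 and 37.0). Of the 2 measured loci of maf1, a repressor of polymerase III, the lower one (17.0 to 31.5 scaled FPKM) differed between tetraploids and haploids by -0.51 ± 0.16 log2 units. The higher maf1 locus (159 to 332) differed by 0.034 ± 0.23 (SE, limma adjusted p = 0.551 and 0.976). It held 159 and 191 in tetraploid replicates 1 and 2, below all haploid libraries (206 to 218), and 332 in tetraploid replicate 3. The small difference at this locus thus rested on that library. In the same comparison brd2a, an acetyl-lysine reader, had a log2 difference of 0.68 ± 0.21 and brd2b one of -0.28 ± 0.28 (SE, limma adjusted p = 0.551 and 0.794). For brd2b too, tetraploid replicate 3 stood apart, with 3.8, 4.1 and 8.1 in tetraploid libraries and 6.1 to 6.7 in haploid libraries. These genes were named after their values were seen.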

How the data were processed

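RNA was sequenced from 9 libraries of whole embryos, 3 per ploidy. The deposited tables give FPKM per locus with the bounds of the estimate, per the file headers. Per the submitters' processing notes, the authors used GRCz10 and, in unstated order, Cuffdiff, Cufflinks, HISAT2, Trim Galore and FastQC. The sources used here state no version, annotation or strand setting. Coordinates are as the files give them. Antisense overlap could not be assessed, and 16 of the 64 measured members overlap another listed locus.

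FPKM were scaled by median-of-ratios factors over 5767 loci above 0 in all libraries. Loci with a mean FPKM of at least 1 and no failed status (5 loci failed) were tested with limma 3.58.1 in R 4.3.3 on log2(FPKM + 1) (eBayes with trend), in a joint fit of the 9 libraries with 6 residual degrees of freedom, and no block. The fit was tested on simulated data with the same spread in every library, which does not cover a deviating library such as tetraploid replicate 3. Reads were not recovered from FPKM, so no count test was run. Replicates are numbered in accession order.

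The members, lists and tests were chosen with earlier results of these data known. Named members are those with an adjusted p under 0.05, the 6 with the smallest p in each direction without overlap of the groups, the 10 highest and 5 lowest levels, a set fixed by role, and gene pairs ending in a and b. Members outside this rule are named with their mean level or were singled out after their values were seen. Alternatives were pseudocounts of 0.1 and 5, unscaled FPKM, no filter, a mean FPKM of at least 5, each library left out, a replicate block, library weights, and a fit of the 6 libraries compared. The authors' tables of pooled FPKM were used only where named.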

Additional observations from a re-analysis of the deposited data

How the results depend on the processing

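No member passed in any of the 17 alternatives of any comparison, and the lowest limma adjusted p of a member was 0.264. The 24 differences of members named by the smallest p kept their direction in every alternative run. They were chosen from these same libraries for groups without overlap, so a change of direction was unlikely and this is no separate support. The members' median for tetraploids against diploids was -0.060 with FPKM as deposited and 0 with no filter. For tetraploids against haploids it was 0.051 with FPKM as deposited, 0 with no filter and 0.088 once the pseudocount was 5, and for haploids against diploids 0.0031 with no filter, a setting that counts the unmeasured members too. Over single libraries left out it ranged from -0.060 to -0.024 for haploids against diploids, 0.046 to 0.076 for tetraploids against diploids and 0.061 to 0.13 for tetraploids against haploids. The count of all loci called, 0 or 1 as reported, moved in 20 of 51 alternatives, where the cause was not tested. With a replicate block for the sets of consecutive library numbers in the titles, 0 members were called, and the 1 locus called in each tetraploid comparison was no longer called. The medians of -0.038, 0.052 and 0.13 cannot move under such a balanced block. Deviations from the group means correlated by -0.11 to 0.23 in the 9 same-set pairs, over 0.1 in 1 of them. A library correlated best with its own set in 4 of 18 checks, each a choice among the 3 libraries of another group. Whether a set shares a clutch or day is not given by the labels. A lack of calls at 3 libraries a group, with a median SE of 0.20 log2 units for the members, does not show that ploidies had equal levels.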
